A study of Mus musculus with 58 samples.

Results

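Mouse olfactory receptor genes stand in long tandem arrays, and 2 of the largest lie on chromosomes 2 and 7. H3K27ac, the acetylation of a lysine in the tail of histone H3, was followed here across 2 intervals placed on these arrays. They are chromosome 2 from 85000001 to 90000000 and chromosome 7 from 109500001 to 115000000 (mm9, the build of every window below). How fully they cover the arrays was not checked. The second interval also holds the beta-globin genes near 110.96 Mb. The members were chosen by position alone and are the 2100 windows of 5 kb that tile both intervals, 1000 on chromosome 2 and 1100 on chromosome 7, out of 527783 windows of the autosomes and X. No mm9 annotation was used, so windows are not assigned to genes, and a window of either interval may hold a receptor gene, another gene or intergenic sequence.

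The series profiled histone marks in mouse oocytes and embryos by STAR ChIP-seq, chromatin immunoprecipitation adapted to few cells, in 58 samples. The values below come from full-grown oocytes, precipitated with an H3K27ac antibody. The labels of all 4 samples used give an age of 8 weeks, as do those of most other samples. For the series as a whole, the labels name females that received the hormones PMSG and hCG. The control oocytes are labelled Setd2+/- and thus carry 1 mutant allele themselves, and the other group is the maternal knockout, labelled Setd2-/-. How and in which cells the gene was deleted is not given in the sources used here. Each genotype had 2 replicates, which were merged by the authors into 1 track, so that every value is the authors' pooled value. No spread between replicates exists for any of them, no test was possible, and each difference is a difference between 2 pools. The pools held 30694806 control and 29367645 knockout reads. The unit, RPKM, is the number of reads divided by the length of the bin in kb and by the reads of the library in units of 1e6. Intervals beside ratios are exact binomial (Clopper-Pearson) at 95%. They allow for the counting of reads and for nothing else, and PCR copies of a molecule make them narrower than they should be.

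As background, odorant receptors are G protein-coupled receptors of the olfactory epithelium. Each olfactory sensory neuron expresses a single receptor allele and keeps the rest of the family silent in compact heterochromatin, and other tissues leave nearly all receptor genes silent. H3K27ac marks active promoters and enhancers. SETD2 places H3K36me3 on transcribed gene bodies, and H3K36me3 guides DNA methylation in the oocyte.

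The sequence just before receptor gene starts is poor in G and C and in CpG. In the RefSeq gene table of GRCm38.p6, used only for names, gene order and promoter sequence, chromosome 2 has 287 protein-coding receptor genes (symbols starting with Olfr). Of these, 222 form 1 row from Olfr987 to Olfr1274 that only 3 other protein-coding genes interrupt, Fads2b, Pramel7 and Pramel6. A row was ended where 5 or more other protein-coding genes stood between receptor genes. Under this rule the 239 of chromosome 7 are broken into shorter rows, the longest of which holds 73 and ends at Olfr67. There the 5 protein-coding beta-globin genes Hbb-bt, Hbb-bs, Hbb-bh2, Hbb-bh1 and Hbb-y stand directly between the receptor genes Olfr67 and Olfr66. The rule thus cuts the row at the globin genes, and a slightly looser one would carry it past them. Whether each of these genes lies inside the mm9 intervals was not checked by position.

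The 250 bases before the annotated start are shown for the first and the last gene of the chromosome 2 row that have an entry and for both receptor neighbours of the globin genes. Capitals mark CpG dinucleotides, the sites of DNA methylation. All 4 read 5′ to 3′ on the strand of the gene, and their positions are those of GRCm38.p6. They are Olfr988 at chr2:85353925-85354174 (minus strand), Olfr1274 at chr2:90400390-90400639 (plus strand), Olfr67 at chr7:103791831-103792080 (minus strand) and Olfr66 at chr7:103882242-103882491 (minus strand).
Olfr988: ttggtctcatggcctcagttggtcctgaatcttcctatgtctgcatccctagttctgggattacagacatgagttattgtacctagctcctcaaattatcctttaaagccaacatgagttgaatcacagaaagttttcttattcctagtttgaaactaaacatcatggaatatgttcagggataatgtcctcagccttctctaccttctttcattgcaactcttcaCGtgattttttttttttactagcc
Olfr1274: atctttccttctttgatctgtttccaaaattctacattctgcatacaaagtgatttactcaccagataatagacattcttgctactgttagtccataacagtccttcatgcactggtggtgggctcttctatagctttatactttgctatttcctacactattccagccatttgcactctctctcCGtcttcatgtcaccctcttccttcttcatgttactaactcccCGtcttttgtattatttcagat
Olfr67: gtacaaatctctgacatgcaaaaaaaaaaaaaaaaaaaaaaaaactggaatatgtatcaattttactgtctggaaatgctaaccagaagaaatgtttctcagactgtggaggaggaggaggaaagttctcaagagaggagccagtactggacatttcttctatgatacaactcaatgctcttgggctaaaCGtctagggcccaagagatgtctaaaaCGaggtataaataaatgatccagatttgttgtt
Olfr66: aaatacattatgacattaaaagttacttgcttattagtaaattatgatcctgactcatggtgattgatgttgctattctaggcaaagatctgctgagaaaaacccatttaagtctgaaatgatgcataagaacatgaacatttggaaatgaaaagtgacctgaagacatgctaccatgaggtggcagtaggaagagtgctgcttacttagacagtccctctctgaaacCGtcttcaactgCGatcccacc

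These stretches hold 1 CpG for Olfr988 and 2 for each of the other genes, with 36.4% to 38.8% G and C. Of the 222 receptor genes in the chromosome 2 row, 186 had an entry, with 187 promoters. The median of these promoters was 30.8% G and C and 1 CpG, and 46.0% had no CpG at all. Their 90th percentile was 36.4% G and C, so Olfr988 (38.4%) and Olfr1274 (38.8%) are richer in G and C than most of the row. For the 209 receptor promoters of chromosome 7 the medians were 35.6% and 1 CpG. Over all 32851 promoters of the table, the medians were 52.4% and 6 CpGs, and 7.87% lacked a CpG. None of the 187 or of the 209 promoters reached 10 CpGs, a number that 37.8% of all promoters reached. The receptor promoters therefore lie at the CpG-poor end of the table. The letters TAATNA, as in homeodomain sites, occurred on either strand in 78.1% of the chromosome 2 promoters, in 60.8% of those of chromosome 7 and in 24.3% of all promoters. The letters TATAAA occurred in 51.9%, 40.7% and 12.4%, and CCCNNGGG, as in sites of the olfactory factor Ebf, in 2.14%, 3.83% and 11.8%. Each word was searched on both strands, and none contains another. How far the shares follow from base composition alone was not tested. RefSeq starts of receptor genes can lie at the coding exon, so these windows need not be the promoters used in neurons.

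The interval of chromosome 2 was poor in H3K27ac in the control pool and poorer in the knockout pool. Its mean was 0.224 RPKM in control (34310 reads) and 0.136 RPKM in knockout (19934 reads), a knockout over control ratio of 0.607 (0.597 to 0.618). The autosomal means were 0.374 and 0.387 RPKM, a ratio of 1.04 that is held near 1 because RPKM divides by the reads of the library. The chromosome 2 interval thus stood at 59.8% of the autosomal mean in control and at 35.1% in knockout. Of 467 blocks of 5 Mb that tile the autosomes after their first 5 Mb, 21 had a lower control mean, 5 a lower knockout mean and 25 a lower ratio.

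The interval of chromosome 7 was closer to the rest of the genome. Its mean was 0.334 RPKM in control (56344 reads) and 0.304 RPKM in knockout (49148 reads), a ratio of 0.912 (0.901 to 0.923). It stood at 89.3% of the autosomal mean in control and 78.6% in knockout, and 168 of the 467 blocks had a lower ratio. Setting both pools to the same median of autosomal windows, a shift of 0.36 on the log2 scale, turned its ratio to 1.17, whereas that of chromosome 2 stayed below 1 at 0.780. The direction on chromosome 7 therefore depends on the scaling.

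In the chromosome 2 interval 790 of 1000 windows lay below the autosomal mean of their pool in both pools. Without the windows that reached it in either pool the ratio was 0.787, against 0.607 with them. Its median window had 0.117 RPKM in control against 0.0886 RPKM in knockout, which is 38.3% and 37.1% of the autosomal medians of 0.306 and 0.238 RPKM. By medians, then, the interval stood about equally far below the autosomes in both pools. The windows at or above the autosomal mean of their own pool, in contrast, numbered 194 of 1000 in control and 73 in knockout. The 90th percentile was 0.613 RPKM in control against 0.313 RPKM in knockout, and the highest window had 1.58 and 1.04 RPKM. Windows below 0.25 times the autosomal mean numbered 445 in control and 556 in knockout. On chromosome 7 the median window had 0.254 and 0.163 RPKM, 401 and 282 of 1100 windows reached the autosomal mean, and 335 and 337 lay below 0.25 times the mean. Over all autosomes, the share of windows at or above the mean was 43.2% in control and 35.5% in knockout, and 24.0% and 22.7% lay below 0.25 times the mean. The larger number of poor windows in knockout on chromosome 2 thus had no counterpart on chromosome 7 or over the autosomes. It was not particular to the interval, since the 5 Mb before it had 166 such windows in control and 245 in knockout. The 5 Mb after it went the other way, with 339 and 206.

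**Figure D1:**
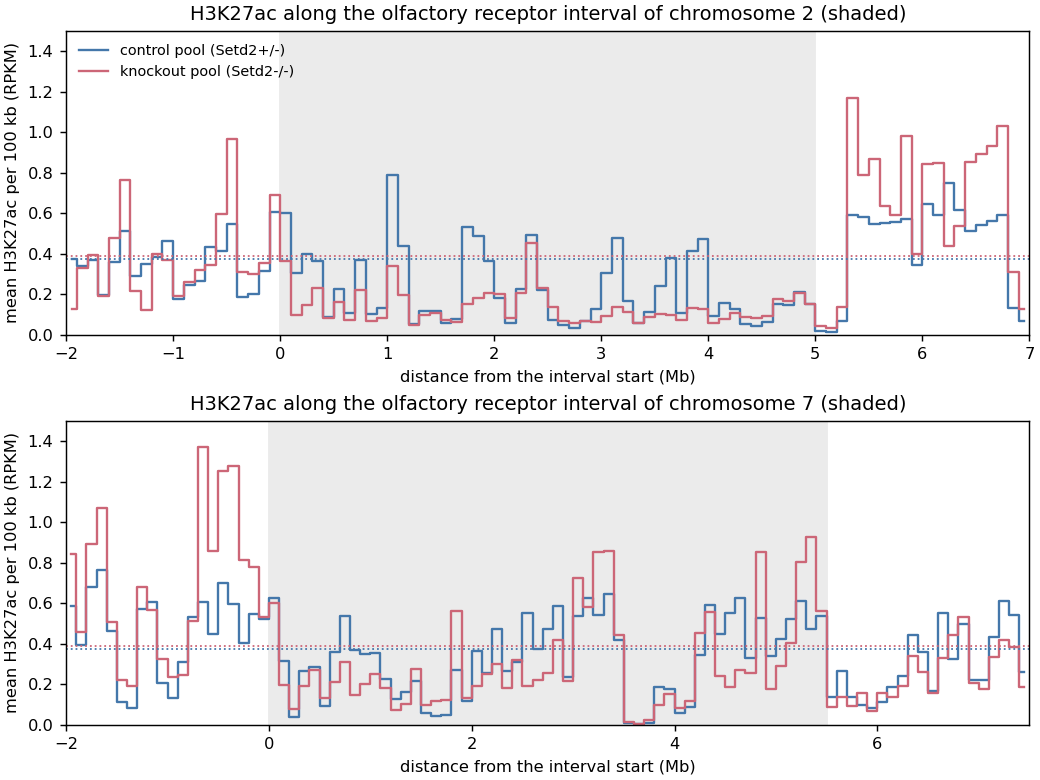
Mean H3K27ac in RPKM (y axis) per 100 kb against the distance in Mb from the start of each interval (x axis), with 2 Mb on either side, in the control pool (blue) and the knockout pool (red). Shading marks the intervals and dotted lines the autosomal means of 0.374 and 0.387 RPKM. On chromosome 2 the control pool stands above the knockout pool in most peaks inside the shading, and both pools step up beyond its end.

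In the plot along the intervals, control signal on chromosome 2 alternated between rich and nearly empty blocks, and the ratio was lowest in the rich ones. Among 50 blocks of 100 kb, 14 were at least 2-fold lower in knockout (28.0%) and none was 2-fold higher. Over the autosomes, 12.4% of such blocks were 2-fold lower and 13.5% 2-fold higher. All 16 blocks with 0.3 RPKM or more in control were lower in knockout, with ratios from 0.261 to 0.915 and a median of 0.366, and 11 of the 14 that were 2-fold lower were among them. Of the 20 blocks from 0.1 to 0.3 RPKM, 16 were lower, with a median of 0.813. Of 15550 autosomal blocks with 0.3 RPKM or more in control, 8728 were lower in knockout, and the median ratio was 0.909. Of the 14 blocks under 0.1 RPKM in control, 10 were higher and 4 lower in knockout, with a median of 1.34. Among 3062 autosomal blocks as poor, 2912 were higher and 150 lower, with a median of 2.26. Higher values in poor blocks were thus less frequent on chromosome 2 than over the autosomes. The lowest ratio was that of the block from 88600001 to 88700000, with 1165 control and 291 knockout reads (0.380 and 0.0991 RPKM), 0.261 (0.229 to 0.297). Next were the blocks that start at 88900001, with 0.475 and 0.128 RPKM, and at 86700001, with 0.534 and 0.151 RPKM. With both pools set to the same autosomal median, 9 of the 50 blocks (18.0%) were 2-fold lower and 4 (8.0%) were 2-fold higher, against 5.51% and 25.7% of autosomal blocks under that scaling.

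The lower signal was not spread evenly over the 5 Mb of chromosome 2. In the block of 1 Mb that starts at 85000001 the means were 0.269 RPKM in control against 0.153 RPKM in knockout, a ratio of 0.571. In the block that starts at 86000001 they were 0.304 and 0.147 RPKM, a ratio of 0.484. From 87000001 the pools were nearly equal, at 0.153 and 0.157 RPKM, a ratio of 1.02. The block that starts at 88000001 differed most of the 5, with 0.273 RPKM in control against 0.102 RPKM in knockout. Its ratio was 0.373 (0.358 to 0.389), and 16 of 2399 autosomal blocks had a lower one. The last block, from 89000001, was equal again, at 0.120 RPKM in both pools and a ratio of 1.00. At least 2-fold lower were therefore 2 of 5 blocks, against 6.0% of autosomal blocks of 1 Mb, and none was 2-fold higher, against 4.17%. The knockout pool was more even along the interval, with 0.102 to 0.157 RPKM against 0.120 to 0.304 RPKM in control. With both pools set to the same autosomal median, 1 of the 5 blocks was 2-fold lower (0.479, from 88000001), against 1.04% of autosomal blocks, and the block from 86000001 had 0.621. The blocks from 87000001 and 89000001, equal before, then had 1.32 and 1.29.

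**Figure D2:**
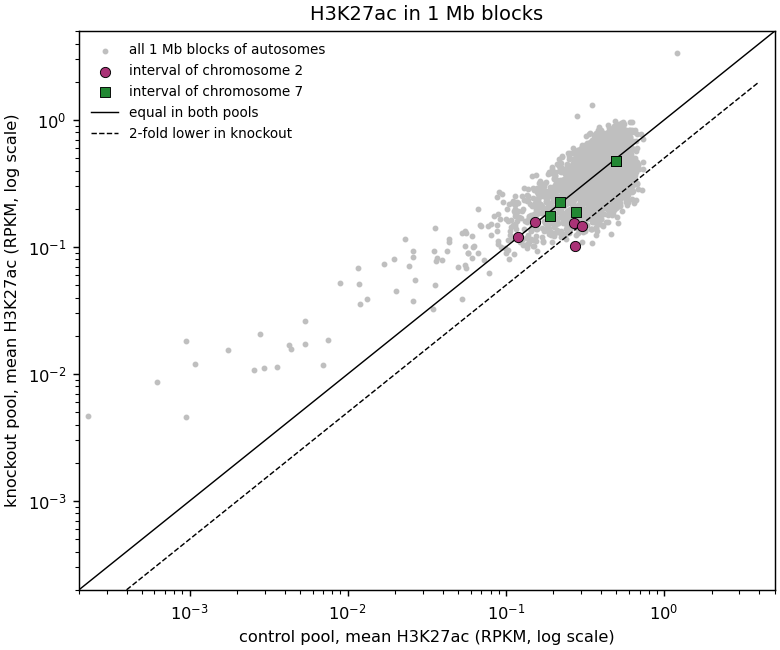
Mean H3K27ac of blocks of 1 Mb in the control pool (x axis) and the knockout pool (y axis), in RPKM on log scales, for all autosomal blocks with at least 100 reads over both pools (grey), those of the chromosome 2 interval (purple circles) and those of the chromosome 7 interval (green squares, of which those at 0.499 and 0.494 RPKM overlap). The solid line marks equal values and the dashed line a 2-fold lower knockout value. The block of chromosome 2 that starts at 88000001, at 0.273 and 0.102 RPKM, lies farthest below the dashed line among the 10 interval blocks.

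Beyond the end of the chromosome 2 interval both pools stepped up, but only after 300 kb that were poorer than the last 100 kb inside (0.152 RPKM in control and 0.150 RPKM in knockout). Where the array itself ends was not checked. In the 300 kb after the interval the blocks had 0.0205, 0.0140 and 0.0655 RPKM in control and 0.0419, 0.0324 and 0.136 RPKM in knockout. The next block had 0.594 and 1.17 RPKM, so the knockout pool was the higher one in each of these 4 blocks. The 5 Mb after the interval had means of 0.330 RPKM in control against 0.422 RPKM in knockout, a ratio of 1.28. The 5 Mb before it had 0.402 and 0.326 RPKM, a ratio of 0.811. In the last 100 kb before the interval the knockout pool was higher, with 0.688 against 0.608 RPKM, and in the first 100 kb inside it was lower, with 0.365 against 0.600 RPKM.

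Along chromosome 7, blocks that were lower and higher in knockout alternated. Of 53 blocks of 100 kb with at least 100 reads over both pools, 4 were 2-fold lower (7.55%, against 12.4% over the autosomes) and 4 were 2-fold higher (against 13.5%), so neither share was above the background. With both pools set to the same autosomal median 2 were 2-fold lower and 9 2-fold higher, against 5.51% and 25.7% of autosomal blocks. The lower ones started at 110300001 (0.370 and 0.147 RPKM), 112000001 (0.551 and 0.192 RPKM), 114000001 (0.552 and 0.186 RPKM) and 114100001 (0.627 and 0.272 RPKM). The higher ones started at 111100001 (0.0411 and 0.119 RPKM), 111200001 (0.0492 and 0.123 RPKM), 111300001 (0.268 and 0.561 RPKM) and 113200001 (0.00912 and 0.0252 RPKM, from 28 and 74 reads). In the 5 whole blocks of 1 Mb the ratio ran from 0.673, in the block from 110000001 with 0.279 and 0.188 RPKM, to 1.03. The 2 richest blocks, from 112000001 and from 114000001, had 0.499 and 0.494 RPKM in control and 0.477 and 0.473 RPKM in knockout. These were above the autosomal mean in both pools, as no block of 1 Mb on chromosome 2 was. The 5 Mb before this interval had 0.424 (control) and 0.570 (knockout) RPKM, a ratio of 1.34, and the 5 Mb after it 0.319 and 0.352 RPKM, a ratio of 1.10.

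The beta-globin genes are erythroid genes and are silent outside red blood cell precursors. The 100 kb centred on 110.96 Mb were poor in both pools, with 571 control and 699 knockout reads. The means were 0.186 and 0.238 RPKM, or 49.8% and 61.5% of the autosomal means, a ratio of 1.28 (1.14 to 1.43). The knockout signal was higher in 14 of its 20 windows and lower in 6 (30.0%, against 45.8% of autosomal windows). The mean of the stretch joins unlike parts, and its median window stood at 19.1% and 54.3% of the autosomal medians. A control island from 110905001 to 110930000, which reaches in over the left edge, had 0.616 and 0.634 RPKM, a ratio of 1.03. The control desert from 110960001 to 111015000, chosen as low in control, had 0.0444 and 0.0879 RPKM, a ratio of 1.98. The rest of the chromosome 7 interval had 0.337 and 0.306 RPKM, a ratio of 0.908 (0.897 to 0.919). The stretch and the rest of its interval lay on different sides of 1, but with both pools set to the same autosomal median both lay above it, at 1.64 and 1.17. The blocks at and past its end had ratios of 1.60 from 111000001, 2.89 from 111100001, 2.50 from 111200001 and 2.09 from 111300001.

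Single windows showed the same difference between the intervals. Windows whose average of the pools reached the genome-wide mean of 0.379 RPKM were called at 2-fold on log2(RPKM + 0.1). The added 0.1 makes changes of low windows look smaller. On chromosome 2, 134 of 1000 windows passed this filter, of which 57 were 2-fold lower in knockout (42.5%) and 2 were 2-fold higher (1.49%). Over the autosomes, 13.4% of 204398 windows were lower and 12.2% higher. The median log2 ratio of the windows that passed was -0.83 on chromosome 2 and 0.07 over the autosomes. On chromosome 7, 342 of 1100 windows passed, 53 were lower (15.5%), 29 were higher (8.48%) and the median log2 ratio was -0.14. The share of lower windows there was near the background. With both pools set to the same autosomal median, 39 windows were lower and 5 higher on chromosome 2. On chromosome 7 the split turned, to 25 lower and 60 higher, and over the autosomes it became 7.04% lower and 24.3% higher.

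The filter at the mean leaves out most windows of a poor interval, so a second count took every window with at least 20 reads over both pools and compared RPKM without a pseudocount. On chromosome 2, 726 windows passed, 300 were 2-fold lower (41.3%) and 89 were 2-fold higher (12.3%). Over 427431 autosomal windows, 21.4% were lower and 18.9% higher. On chromosome 7, 897 windows passed, 232 were lower (25.9%) and 135 higher (15.1%). In the globin stretch 17 of 20 windows passed, 9 were higher and none was lower, while 4 reached the genome-wide mean and none of those was called. Under the median scaling, chromosome 2 had 232 lower and 126 higher windows, chromosome 7 150 and 219, and the autosomes 14.3% and 28.9%. Over all windows of the intervals, 620 on chromosome 2 were lower (62.0%) and 365 higher in knockout. On chromosome 7 the numbers were 561 (51.0%) and 503. Over the autosomes 226345 windows were lower (45.8%) and 247109 higher.

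**Figure D3:**
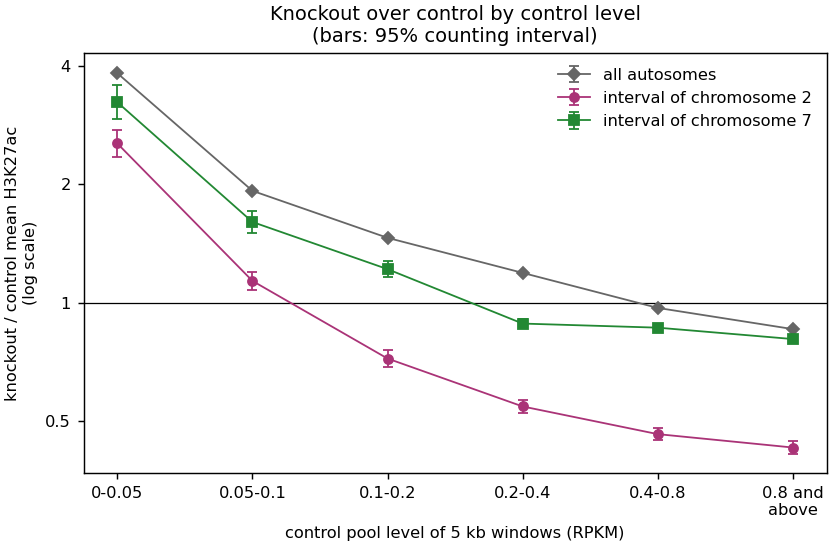
Knockout over control ratio of mean H3K27ac (y axis, log scale) for 5 kb windows in classes of control level in RPKM (x axis), for all autosomes (grey), the chromosome 2 interval (purple) and the chromosome 7 interval (green). Bars are 95% counting intervals. The chromosome 2 interval lies below the autosomes in every class, at 0.463 against 0.969 between 0.4 and 0.8 RPKM.

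Because the knockout over control ratio of autosomal windows went down with the control level, windows were set beside autosomal windows of the same control level. Such classes select on the denominator of the ratio, so part of that decline is built in. Only the difference from the autosomes within a class is read here. Windows with 0 to 0.05 RPKM in control had a ratio of 2.54 (2.35 to 2.75) on chromosome 2, 3.23 (2.93 to 3.58) on chromosome 7 and 3.83 over the autosomes. Between 0.1 and 0.2 RPKM the ratios were 0.721, 1.22 and 1.46. Between 0.4 and 0.8 RPKM they were 0.463 (0.447 to 0.479), 0.864 (0.848 to 0.880) and 0.969. At 0.8 RPKM and above they were 0.428, 0.808 and 0.856. In the plot by control level both intervals lay below the autosomes in each of the 6 classes, chromosome 2 by a wide margin and chromosome 7 by a small one among the rich windows.

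Classes set by the knockout level, an ordering chosen after the data were seen, do not select windows by their control value. They select on the numerator instead, and over the autosomes the ratio then rose with the level, to 1.62 at 0.8 RPKM and above. Windows with 0 to 0.05 RPKM in knockout had a ratio of 0.318 on chromosome 2 and 0.340 over the autosomes. Between 0.05 and 0.1 RPKM the ratios were 0.499 and 0.481, and between 0.1 and 0.2 RPKM 0.613 and 0.594. In these 3 classes the ratios of chromosome 2 and of the autosomes were alike, although in the poorest class the chromosome 2 windows were richer in both pools, with means of 0.0903 and 0.0287 RPKM against 0.0531 and 0.0180 RPKM. The 3 classes held 27.6%, 28.0% and 26.0% of its windows, against 11.4%, 11.3% and 21.5% over the autosomes. Between 0.4 and 0.8 RPKM the chromosome 2 ratio was lower, 0.784 against 1.04. By the mean of both pools the ratio between 0.4 and 0.8 RPKM was 0.532 on chromosome 2, 0.812 on chromosome 7 and 0.935 over the autosomes. Chromosome 2 stood below the autosomes at that level under each of the 3 ways to set the classes.

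Islands of H3K27ac were then taken as runs of at least 3 adjacent windows, or 15 kb, at or above the autosomal mean of the pool. The chromosome 2 interval had 28 islands in control, which covered 805 kb (16.1% of it), and 8 in knockout, which covered 155 kb (3.10%). The chromosome 7 interval had 55 over 1615 kb (29.4%) in control and 31 over 1010 kb (18.4%) in knockout. Over the autosomes islands covered 37.3% and 28.8%. Per Mb there were 5.60 and 1.60 islands on chromosome 2, 10 and 5.64 on chromosome 7 and 9.51 and 6.97 over the autosomes. The longest stretch between islands of chromosome 2 was 905 kb in control and 2315 kb in knockout, and on chromosome 7 it was 415 and 430 kb.

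Nearly every control island of chromosome 2 was lower in knockout. Of the 28, 27 were lower (96.4%, against 59.6% of 23517 autosomal control islands). At least 2-fold lower were 21 (75.0%, against 22.4%), and none was 2-fold higher (against 4.29%). The choice of windows by control level favours the control pool in all these shares. Their ratios ran from 0.170 to 1.08 with a median of 0.344, against 0.861 over the autosomes. The longest, from 86855001 to 86930000, had 0.823 RPKM in control against 0.351 RPKM in knockout. The island from 85035001 to 85090000 had 0.687 and 0.443 RPKM, and the one from 88910001 to 88960000 0.568 and 0.160 RPKM. Of 55 control islands on chromosome 7, 39 were lower (70.9%), 16 were 2-fold lower (29.1%) and 2 were 2-fold higher (3.64%), with a median ratio of 0.715. With both pools set to the same autosomal median, 26 of the 28 islands of chromosome 2 and 31 of the 55 of chromosome 7 were lower, against 44.4% over the autosomes. At least 2-fold lower were 15 (53.6%) and 10 (18.2%), and 2-fold higher were 0 and 6 (10.9%), against 13.0% lower and 14.3% higher over the autosomes under that scaling. The longest control island of chromosome 7, from 112775001 to 112845000, had 0.706 RPKM in control against 1.20 RPKM in knockout. The next, from 112160001 to 112225000 and from 114470001 to 114535000, had 0.687 and 0.533 RPKM in control and 0.391 and 0.275 RPKM in knockout. Islands of chromosome 7 thus went both ways, as the scatter of islands shows.

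**Figure D4:**
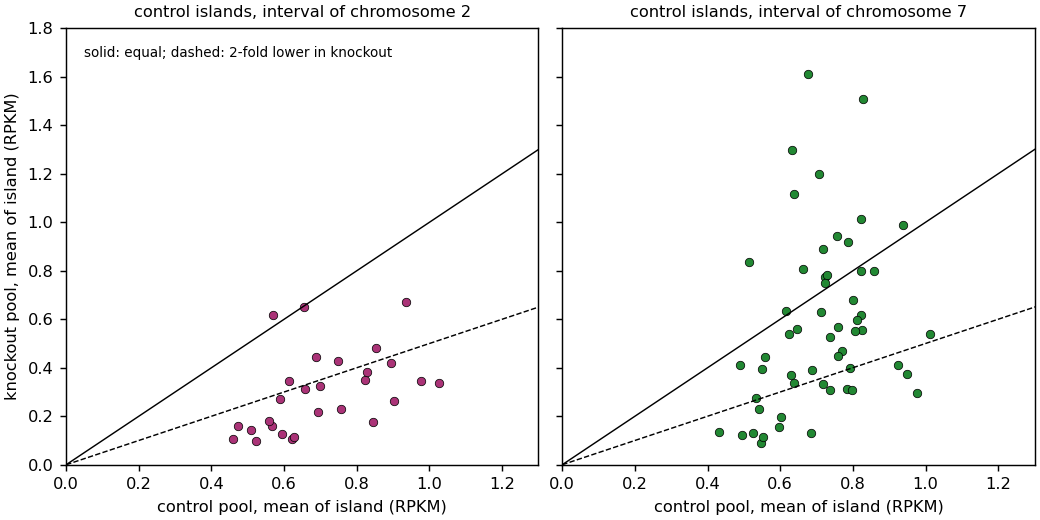
Mean H3K27ac of each control island in the control pool (x axis) and in the knockout pool (y axis), in RPKM, for the 28 islands of the chromosome 2 interval (left) and the 55 of the chromosome 7 interval (right). Solid lines mark equal values and dashed lines a 2-fold lower knockout value. On chromosome 2, 27 islands lie below the solid line, and on chromosome 7, 39 do while the highest reaches 1.61 RPKM in knockout. Of all autosomal control islands, 59.6% are lower in knockout.

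Islands defined in the knockout pool gave the reverse view, in which the choice of windows favours the knockout. On chromosome 2, 5 of the 8 knockout islands were nevertheless lower in knockout, with a median ratio of 0.739, and 1 was 2-fold lower (12.5%, against 0.731% over the autosomes) and none 2-fold higher (against 12.6%). Over the autosomes 31.1% of knockout islands were lower and the median ratio was 1.23. The longest knockout island of chromosome 2, from 87340001 to 87380000, had 0.556 RPKM in control against 0.600 RPKM in knockout. The next, from 85735001 to 85755000 and from 86020001 to 86040000, had 0.810 and 0.971 RPKM in control and 0.616 and 0.611 RPKM in knockout. On chromosome 7, 13 of 31 knockout islands were lower and the median ratio was 1.03. Its longest, from 114735001 to 114865000, had 0.581 and 1.05 RPKM, and those from 112770001 to 112845000 and from 114290001 to 114365000 had 1.15 and 1.11 RPKM in knockout and 0.673 and 0.649 RPKM in control. Of the island windows of control, 14.9% were also in a knockout island on chromosome 2, 48.6% on chromosome 7 and 56.1% over the autosomes. Of those of knockout, 77.4%, 77.7% and 72.6% were also in a control island. These shares of knockout island windows were alike, although control islands covered 16.1% of chromosome 2, 29.4% of chromosome 7 and 37.3% of the autosomes. The shares were not corrected for that cover, and the one of chromosome 2 rests on 24 of 31 windows. The low share of control island windows on chromosome 2 was bounded by the numbers, with 161 windows in control islands and only 31 in knockout islands. It therefore says little beyond the small number of knockout islands.

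Deserts, runs of at least 10 adjacent windows (50 kb) below 0.25 times the autosomal mean, covered 18.3% of the chromosome 2 interval in control (9 deserts) and 14.1% in knockout (11 deserts). On chromosome 7 they covered 17.2% (8 deserts) and 8.09% (3 deserts), and over the autosomes 12.5% and 5.87%. The longest control desert of chromosome 2, from 89340001 to 89590000, had 348 control and 644 knockout reads, or 0.0454 and 0.0877 RPKM. The next, from 87625001 to 87785000, had 0.0358 and 0.0622 RPKM, and the third, from 88285001 to 88380000, 0.0490 and 0.0516 RPKM. The longest knockout desert, from 85805001 to 85890000, had 0.107 RPKM in control against 0.0593 RPKM in knockout. The knockout deserts from 88455001 to 88530000 and from 89030001 to 89105000 had 0.0426 and 0.0543 RPKM in control and 0.0422 and 0.0327 RPKM in knockout. Deserts of the pools were largely different windows on chromosome 2, where 34.8% of the knockout desert windows were also in a control desert. That share was 100% on chromosome 7, where 89 of 89 windows were shared, and 91.1% over the autosomes. A desert needs an unbroken run, and single poor windows of chromosome 2 overlapped more than its deserts did. Of its windows below 0.25 times the mean, 445 in control and 556 in knockout, 330 were below it in both pools. Most of the shared windows of chromosome 7 lay in the almost empty stretch described below. Over the autosomes 20999 windows held no read in either pool, beside 29031 windows in knockout deserts. How far windows without reads set these shares was not tested.

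On chromosome 7 the longest control desert ran over 400 kb from 112975001 to 113375000 and was almost empty, with 73 control and 166 knockout reads (0.00595 and 0.0141 RPKM). The knockout deserts from 112980001 to 113230000 and from 113235001 to 113375000 cover most of it, and the third runs from 113425001 to 113480000. The next control deserts, from 113425001 to 113570000 and from 111235001 to 111315000, had 0.0348 and 0.0415 RPKM in control and 0.0615 and 0.142 RPKM in knockout. Windows without a read numbered 77 in control and 50 in knockout on chromosome 7, 36 of them in both pools, and 34 and 26 on chromosome 2, 15 of them in both. How well reads can be placed in these windows was not tested.

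The richest windows of the intervals show the range of single values. The highest control windows of chromosome 2 start at 86070001, 86885001 and 85745001, with 1.58, 1.40 and 1.36 RPKM in control and 0.702, 0.381 and 0.756 RPKM in knockout. Its highest knockout windows start at 87355001, 87280001 and 86030001, with 1.04, 0.960 and 0.926 RPKM in knockout and 0.802, 0.619 and 0.821 RPKM in control. On chromosome 7 the highest control windows start at 110510001, 114305001 and 113390001, with 1.59, 1.41 and 1.38 RPKM in control and 0.402, 1.31 and 0.307 RPKM in knockout. The highest knockout window of both intervals, at 114325001, had 3.73 RPKM (547 reads) against 0.626 RPKM in control (96 reads), a 5.96-fold difference (4.79 to 7.48) that shrank to 2.36-fold where no bin counted for more than 10 reads. The windows at 112785001 and 114845001 both had 2.06 RPKM in knockout, against 0.886 and 0.730 RPKM in control. The highest windows of chromosome 7 in knockout thus exceeded all of chromosome 2.

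The extreme ratios rested on few reads in 1 of the pools. On chromosome 2 the window at 88985001 had 35 control reads and no knockout read. With a floor of 3 reads set for the count of 0 and the control count taken as exact, the control signal was 11.2-fold higher. The counting interval of the knockout over control ratio, which allows for both counts, ran from 0 to 0.116. The windows at 86155001 and 88605001 had 49 and 48 control reads and 1 knockout read each, ratios of 0.0213 (0.000529 to 0.125) and 0.0218 (0.000540 to 0.127). The highest ratio was in the window at 86305001, with 1 control and 23 knockout reads, 24.0 (3.90 to 990), and 17 of the 23 reads lay in 1 bin of 100 bp. The windows at 89350001 and 87720001 had 1 and 2 control reads and 19 and 20 knockout reads. On chromosome 7 the lowest ratios were in the windows at 111790001 (27 and 1 reads), 111530001 (103 and 4 reads) and 114005001 (96 and 4 reads). The highest were at 113650001 (1 and 23 reads, 15 of them in 1 bin), 111950001 (1 and 19 reads) and 111115001 (2 and 26 reads). These intervals do not allow for the choice of the windows as extremes.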

How the data were processed

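The authors deposited 1 track per genotype in RPKM per bin of 100 bp, with empty bins left out and both replicates pooled, per the labels. That the unit is RPKM was read from the values. The submitters' processing notes name mm9, STAR and Bowtie2 2.2.2, with no role given. The sources used here do not state how reads were extended, whether duplicates were removed, how reads with several placements were treated or whether an input was subtracted. Each could change values at near-identical receptor genes. Divided by what 1 read adds to a bin, every deposited value came out whole. A read adds 0.326 RPKM in control and 0.341 RPKM in knockout, the tolerance was 0.005 RPKM, and windows could thus be summed in reads.

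Windows of 5 kb were compared as log2 ratios of knockout over control of RPKM + 0.1 and called at 2-fold, or without a pseudocount from 20 reads. With 1 pool per genotype there was no test. Named windows were the 3 highest per pool and the 3 highest and lowest ratios per interval, at least 50 kb apart. Where a window had at least 30 reads and 1 bin took over 20% of them, it was left out of these lists, 77 on chromosome 2 and 112 on chromosome 7. Named runs were the 3 longest. Alternatives were pseudocounts, scalings, filters, folds, window sizes, thresholds and at most 10 reads per bin, and classes by knockout level or by the mean and calls of windows, blocks and islands under equal medians were added after seeing the data. The members, lists and rules were chosen with earlier results of these data known. The code was tested on simulated data: over 527783 windows, with changes given to windows at or above the mean, 97.9% of 3-fold higher and 98.1% of 3-fold lower windows were called. Promoters and gene order came from RefSeq tables of GRCm38.p6, matched by symbol. Another 54 samples of the series were not analysed here. The tools were matplotlib 3.10.9, SciPy 1.17.1, pandas 2.3.3 and NumPy 2.4.6 under Python 3.11.15.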

Additional observations from a re-analysis of the deposited data

How the results depend on the processing

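The main limit is that each genotype is 1 pool, so no difference has a measure of spread between replicates. No paired analysis was possible because each deposited track merges both replicates of a genotype, and for the same reason leaving out a replicate was not possible. The depth of about 0.326 RPKM per read in a bin limits single 5 kb windows of the poor intervals, many of which hold few reads. For values that moved or turned, the cause was not tested, except that a stricter filter or larger windows leave fewer windows to call. Calls under equal medians and classes by knockout level or by the mean were chosen after seeing the data.

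Taken as medians over windows, the levels in control and knockout were 38.3% and 37.1% on chromosome 2 and 83.0% and 68.6% on chromosome 7. Relative to the genome-wide mean they were 59.0% and 35.8%, and 88.1% and 80.3%. Counting no more than 10 reads in a bin set the knockout level of chromosome 2 to 35.7%. The ratio of chromosome 2 was 0.586 with equal autosomal means, 0.780 with equal medians, 0.595 with at most 10 reads per bin and 0.787 without windows at or above the autosomal mean. That of chromosome 7 was 0.880, 1.17, 0.871 and 0.943, turned only by equal medians.

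Counts of 2-fold windows at or above the mean are given as higher and lower on chromosome 2 (2 and 57) and then on chromosome 7 (29 and 53). Counts left out stayed within 1.5 times of the main ones. Except under equal medians, the autosomal shares at these settings were not counted. The counts therefore show only how the numbers of members moved, not how they stand to the autosomes. A pseudocount of 0.5 gave 0 and 17, then 7 and 14, and one of 0.01 gave 5 higher on chromosome 2. No filter gave 28 and 178, then 60 and 137, and a filter at 2 times the mean 0 and 8, then 16 and 6. Calls at 1.5-fold gave 6 higher on chromosome 2, then 68 and 101. Windows of 2 kb gave 15 and 153, then 98 and 169, and windows of 10 kb 0 and 23, then 11 and 25. At most 10 reads per bin gave 1 higher on chromosome 2. Equal medians gave 5 higher on chromosome 2, then 60 and 25. From 40 reads, 28 windows of chromosome 2 and 76 of chromosome 7 were higher, and from 20 reads with equal medians 219 of chromosome 7 were higher and 150 lower. Equal medians also gave 4 higher and 9 lower blocks of 100 kb on chromosome 2 and 9 and 2 on chromosome 7, 1 lower block of 1 Mb on chromosome 2, 6 higher and 10 lower control islands on chromosome 7, and a ratio of 1.64 for the globin stretch.

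At 0.5 times the mean, deserts of chromosome 2 numbered 22 in control and 25 in knockout, and those of chromosome 7 numbered 17 in knockout. In 10 kb windows there were 20 and 6 knockout deserts. At 2 times the mean, islands numbered 9 and 0 on chromosome 2 and 15 and 13 on chromosome 7. Autosomal numbers of deserts and islands at these settings were not counted. By knockout level, the ratios of windows at 0 to 0.05 RPKM were 0.318 and 0.326 on chromosomes 2 and 7, and those at 0.4 to 0.8 RPKM 0.784 and 0.923. By the mean of both pools they were 1.10 and 1.53, and 0.532 and 0.812. Counting no more than 10 reads in a bin, the ratio of chromosome 7 at 0.4 to 0.8 RPKM was 0.803. Of 46 values of named windows under equal autosomal means and at most 10 reads per bin, 45 stayed inside the counting interval, and none turned.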

Other observations

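Reads of the chromosome 2 interval fell in fewer places in the knockout pool, at almost the same number per place. Of its 50000 bins of 100 bp, 28.4% held a read in control and 15.7% in knockout, with 2.42 and 2.54 reads per covered bin. On chromosome 7 the shares were 38.8% and 27.5%, with 2.64 and 3.25 reads per covered bin, and over the autosomes 44.0% and 33.6%, with 2.61 and 3.38. Bins with more than 10 reads held 2.45% of the control reads and 7.76% of the knockout reads on chromosome 2. The same shares were 2.73% and 14.3% on chromosome 7, and 2.53% and 13.6% over the autosomes. Thus the knockout pool had more reads per covered bin on chromosome 7 and elsewhere, and only slightly more on chromosome 2. Bins with an even number of reads made up 43.5% and 50.02% of covered bins on chromosome 2, 44.0% and 51.0% on chromosome 7, and 42.9% and 53.0% over the autosomes, so this share was higher in knockout in each of the 3.

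The order of the windows was shared less between the pools on chromosome 2. Across its 1000 windows, Spearman's rho between the pools was 0.544 and Pearson's r of log2(RPKM + 0.1) 0.630. Over the 1100 windows of chromosome 7 they were 0.760 and 0.753, and over the autosomes 0.723 and 0.726. Windows are not replicates and share their libraries, and a poorer interval has fewer reads per window.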
